A study of Mus musculus with 6 samples.

Results

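Genes of DNA replication and S phase were examined in mouse LSK cells, the Lin-, Sca1+, c-Kit+ fraction of bone marrow in which stem cells and early progenitors of blood are found. The set was given as 37 genes by name, and its members are the 88 probe sets that name 1 of these genes alone, out of 34945 probe sets naming a single gene. For gene-level values each gene was represented by its brightest probe set, which gave 37 of the 18193 genes tested, so every member was measured. The 3 control arrays came from C57BL/6 Srf+/+;Mx1-Cre mice and the 3 SRF-null arrays from C57BL/6 Srf flx/flx;Mx1-Cre mice. All of them carried the Mx1-Cre transgene and were injected with pIpC, a synthetic RNA that triggers interferon and so this recombinase, from 6 weeks of age as 3 doses of 200 µg, 2 days apart. Cells were taken 35 days after the final dose and came from pooled animals. How many animals made up a pool is not stated in the labels, and every p-value rests on the spread among arrays of such pools, which may be partly technical. Because Mx1-Cre responds to interferon in many cell types, the deletion was not limited to LSK cells.

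Replication starts when the origin recognition complex, CDC6 and CDT1 load the MCM2-7 helicase onto DNA in G1, a step called licensing. In S phase CDC45 and the GINS complex join MCM2-7 to form the active helicase, and polymerases, primase, the sliding clamp PCNA and its loader copy the strands. Most of these genes are textbook targets of E2F transcription factors, so their transcripts mark cells that leave quiescence, and in bone marrow they are higher in cycling progenitors than in resting stem cells. SRF, the transcription factor deleted here, is best known for actin cytoskeleton and immediate early genes, and the comparison asks which transcripts differ between LSK cells with and without it.

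Median intensity per array lay between 200.4 and 292 and the upper quartile between 5008 and 5312, and Spearman correlations between arrays across genes were 0.982 to 0.987. Kit (14.81 to 15.44), Cd34 (16.72 to 16.93) and Flt3 (15.10 to 15.69) were bright on every array, whereas no probe set named Ly6a, the gene of Sca1, alone. Srf, the targeted gene, was at 13.03 ± 0.02 on control and 12.60 ± 0.19 on SRF-null arrays (mean ± SD, n = 3 each) with no overlap, and limma gave a difference of -0.42 (SE 0.13, adjusted p = 0.770), while the position of its probes relative to the deleted part was not examined. A pair of arrays stood apart in sex-linked transcripts: control 2 lacked Y-linked signal and SRF-null 1 lacked Xist signal, while the other 4 had both. Results that lead the text are therefore also given without these 2 arrays.

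Promoters of the members held E2F-type sequences more often than promoters in general. The 5 shown are those with a match among the 12 members with the smallest p below. Of these 12, E2f1, Prim1 and Pcna had a promoter without a match, and no promoter was found for Gins1, Gins2, Pole and Mcm4. RefSeq windows (build GRCm38.p6, 250 bases before to 50 bases after the start site) were found for 31 of 37 members, as 36 windows. Searched on both strands, TTTCCCGC, TTTGGCGC, TTTCGCGC or TTTGCCGC occurred in 14 of these 36 windows (38.9%) and in 2.26% of all 32851 windows of that length. Of the 20 matches 1 overlapped another motif searched. Capitals mark the matches, and each sequence runs 5′ to 3′ along its gene.
Mcm6, chr1:128359656-128359955, minus strand: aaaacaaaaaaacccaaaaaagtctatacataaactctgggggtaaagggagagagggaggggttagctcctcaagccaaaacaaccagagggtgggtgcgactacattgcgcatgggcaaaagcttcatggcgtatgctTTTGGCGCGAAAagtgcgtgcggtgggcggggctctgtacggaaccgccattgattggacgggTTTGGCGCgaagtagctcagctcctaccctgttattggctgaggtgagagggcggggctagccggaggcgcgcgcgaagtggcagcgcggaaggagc
Mcm7, chr5:138171834-138172133, minus strand: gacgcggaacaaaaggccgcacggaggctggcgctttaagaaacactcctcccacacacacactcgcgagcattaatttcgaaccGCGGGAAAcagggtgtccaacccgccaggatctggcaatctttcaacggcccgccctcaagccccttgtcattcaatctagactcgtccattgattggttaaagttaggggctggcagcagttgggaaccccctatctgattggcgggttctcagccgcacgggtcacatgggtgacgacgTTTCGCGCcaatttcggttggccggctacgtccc
Rfc3, chr5:151651159-151651458, minus strand: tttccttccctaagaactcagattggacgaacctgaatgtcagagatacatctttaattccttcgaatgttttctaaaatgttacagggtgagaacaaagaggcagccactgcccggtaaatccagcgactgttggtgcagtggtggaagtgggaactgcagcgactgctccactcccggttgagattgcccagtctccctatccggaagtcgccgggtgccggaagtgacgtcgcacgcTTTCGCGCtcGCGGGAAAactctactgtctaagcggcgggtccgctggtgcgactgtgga
Clspn, chr4:126556730-126557029, plus strand: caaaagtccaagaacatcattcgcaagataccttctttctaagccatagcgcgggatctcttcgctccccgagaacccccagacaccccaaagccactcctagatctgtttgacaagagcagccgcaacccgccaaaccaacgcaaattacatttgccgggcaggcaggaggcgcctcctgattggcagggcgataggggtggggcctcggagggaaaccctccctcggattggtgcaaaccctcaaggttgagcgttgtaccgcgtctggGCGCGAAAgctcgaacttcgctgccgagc
Uhrf1, chr17:56304063-56304362, plus strand: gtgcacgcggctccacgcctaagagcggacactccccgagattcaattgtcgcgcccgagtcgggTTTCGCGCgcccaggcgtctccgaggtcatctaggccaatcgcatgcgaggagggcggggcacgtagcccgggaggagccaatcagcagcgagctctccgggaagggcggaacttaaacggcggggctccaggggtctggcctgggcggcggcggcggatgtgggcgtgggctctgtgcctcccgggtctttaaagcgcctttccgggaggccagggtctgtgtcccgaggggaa

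Mcm6 held 3 matches between bases -110 and -47 from its start site, the first pair of them overlapping. In Mcm7, shown by the window with matches of its 2 listed windows, as is Uhrf1, a match began at base -165 and another at base 17, and in Rfc3 they began at -10 and at 1, on either side of the start. Clspn and Uhrf1 each held 1 match, beginning at 22 and at -185. CCAAT, the box read by NF-Y, occurred in 55.6% of the members' windows against 37.4% of all windows, and the GC box GGGCGG in 69.4% against 35.7%. TTTGAA, the core of the CHR element of many mitosis genes, occurred in 8.33% against 17.9%. The CArG box, the sequence SRF binds, was found in 1 of 36 windows, that of Tyms, or 2.78% against 1.63% of all windows. The members' windows were also richer in G and C, with a median of 57.8% against 52.7%. A match describes these letters and is no evidence of binding in LSK cells.

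Replication genes were close to equal in both genotypes. All values below are quantile-normalised log2(intensity + 16), and differences are SRF-null minus control on that scale. By limma 0 of 37 members passed an adjusted p of 0.05, and the background was the same, with 0% of 18193 genes called. At an unadjusted p under 0.05 the members also numbered 0, or 1 under 6 of the 19 alternatives run, where 2.90% of all genes were higher and 2.83% lower at that p. Of the members 22 were higher and 15 lower in SRF-null cells, with a median difference of 0.01, beside a median of -0.01 over all genes. Single differences ran from -0.21 (Pole) to 0.35 (Gins1), and 36 of 37 were smaller than 0.25 on the log2 scale.

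The arrays bounded most of these differences to within 2-fold, but fewer to within 1.41-fold. The 95% interval of the difference included 0 for 37 of 37 members and lay inside 0.5 on either side, a 1.41-fold change, for 14. For 35 of 37 members it lay inside 1 on either side, a 2-fold change. The exceptions were Tyms (-1.43 to 1.39) and Orc1 (-1.29 to 1.04), the members with the widest spread between arrays. In sorted pools fewer cells in S phase and less transcript per cell cannot be told apart.

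**Figure D1:**
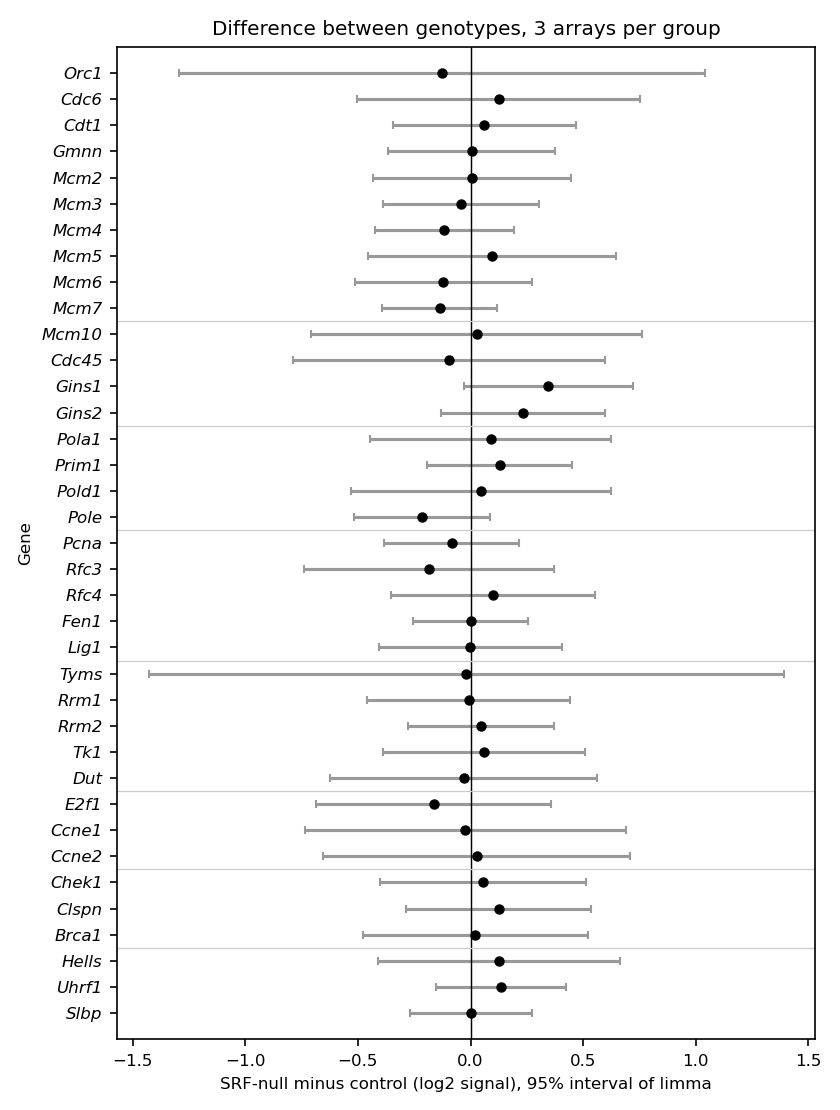
Difference between SRF-null and control arrays for each of the 37 members in log2 units, with the limma 95% interval as the bar and 3 arrays per group. Points lie between -0.21 and 0.35, every bar crosses 0, and the bars of Tyms and Orc1 are the widest.

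The count of higher members rested on single arrays. Without control 1 it was 6 of 37 with a median of -0.13, and without SRF-null 3 it was 11 of 37 with a median of -0.07, while without SRF-null 2 it was 28 of 37. Leaving out control 2 and SRF-null 1 together gave 26 of 37 and a median of 0.10. The split also moved with the scaling: 18 members were higher with no normalisation, 15 after median centring and 24 after scaling to the upper quartile. No member passed the threshold under any of these settings, so the set has no direction between genotypes that holds across them.

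Licensing genes were split evenly, with 5 of 10 higher and 5 lower and a median of -0.02. Orc1, a subunit of the origin recognition complex, differed by -0.13 (SE 0.48), and the loading factors Cdc6 and Cdt1 by 0.12 (SE 0.26) and 0.06 (SE 0.17). Gmnn, which encodes geminin, the inhibitor of CDT1, differed by less than 0.01 (SE 0.15). Among the helicase subunits Mcm2 (0.01, SE 0.18), Mcm3 (-0.04, SE 0.14) and Mcm5 (0.10, SE 0.23) differed by less than their standard errors.

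Mcm7, a helicase subunit, was the 1 member whose SRF-null arrays all lay below the control arrays. It was at 16.50, 16.53 and 16.51 on control arrays 1 to 3 and at 16.37, 16.33 and 16.42 on SRF-null arrays 1 to 3. Its difference was small, at -0.14 (SE 0.10, 95% interval -0.39 to 0.12, limma adjusted p = 0.959), and the controls were tight (SD 0.02, n = 3). All genes tested had groups without overlap in the lower direction in 5.45% of cases, and the other 3 Mcm7 probe sets, which differed by -0.12, -0.09 and -0.07, did overlap.

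Mcm4, another subunit, was at 15.75, 15.82 and 15.80 on control and at 15.72, 15.49 and 15.80 on SRF-null arrays. Only SRF-null 2 was set apart, and the difference was -0.12 (SE 0.13, limma adjusted p = 0.978). Mcm6 was at 16.46, 16.74 and 16.73 on control and at 16.54, 16.29 and 16.72 on SRF-null arrays, so control 1 and SRF-null 2 were both low. Its difference was -0.12 (SE 0.16, limma adjusted p = 0.988).

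Helicase activation genes held the largest difference of the set. Gins1, a subunit of the GINS complex, was at 14.19, 14.64 and 14.43 on control and at 14.78, 14.65 and 14.87 on SRF-null arrays. Every SRF-null array was above every control array, by as little as 0.02 between SRF-null 2 and control 2. The difference was 0.35 (SE 0.15, 1.27-fold, 95% interval -0.03 to 0.72), with a limma adjusted p of 0.875, and it was 0.45 (SE 0.20) without control 2 and SRF-null 1. Groups without overlap in the higher direction made up 5.16% of all genes.

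Gins2, another GINS subunit, was at 13.62, 13.78 and 13.88 on control and at 13.93, 13.84 and 14.21 on SRF-null arrays. Its groups overlapped through SRF-null 2, and the difference was 0.23 (SE 0.15, limma adjusted p = 0.947). Cdc45 (-0.09, SE 0.29) and Mcm10, which helps to start the helicase (0.03, SE 0.30), differed by far less than their standard errors.

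Polymerase and primase genes were within the spread of the arrays as well. Pole, the catalytic subunit of the leading strand polymerase epsilon, had the most negative difference of the set. It was at 14.63, 14.67 and 14.53 on control and at 14.55, 14.32 and 14.32 on SRF-null arrays, and only SRF-null 1 reached into the control range. The difference was -0.21 (SE 0.12, 95% interval -0.52 to 0.09, limma adjusted p = 0.936).

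Prim1, which encodes the catalytic subunit of primase, was at 15.94, 16.28 and 16.17 on control and at 16.19, 16.27 and 16.31 on SRF-null arrays. Apart from a low control 1 these values were interleaved, with a difference of 0.13 (SE 0.13, limma adjusted p = 0.972). Pola1, of the polymerase that extends primers, differed by 0.09 (SE 0.22) and Pold1, of the lagging strand polymerase delta, by 0.05 (SE 0.24). The other Pold1 probe set, a dimmer one, differed by -0.24 (SE 0.29).

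Clamp, clamp loader and lagging strand genes differed by -0.18 to 0.10. Pcna, the sliding clamp, was at 17.04, 17.24 and 17.17 on control and at 17.04, 16.97 and 17.19 on SRF-null arrays. The groups overlapped over most of their range, with a difference of -0.08 (SE 0.12, 95% interval -0.38 to 0.22, limma adjusted p = 0.991). Rfc3, a subunit of the clamp loader, was at 13.28, 13.58 and 13.56 on control and at 13.24, 12.91 and 13.72 on SRF-null arrays. Here SRF-null arrays held both the lowest and the highest value, and the difference was -0.18 (SE 0.23, limma adjusted p = 0.986). The loader subunit Rfc4 differed by 0.10 (SE 0.19). Fen1, the flap nuclease of Okazaki fragments, was the steadiest member by its brightest probe set, spanning 0.10 over the 6 arrays. That probe set is of a type that can also bind other sequences. The other Fen1 probe set was less steady, from 14.63 on control 1 to 15.18 on SRF-null 3. Lig1, whose product seals Okazaki fragments, differed by less than 0.01 (SE 0.17).

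Nucleotide supply genes had differences of -0.03 to 0.06 with a very wide spread in 1 of them. Rrm1 and Rrm2, the subunits of ribonucleotide reductase, differed by -0.01 (SE 0.19) and 0.05 (SE 0.13), the thymidine kinase gene Tk1 by 0.06 (SE 0.18) and Dut, whose product removes dUTP, by -0.03 (SE 0.24). Tyms, which encodes thymidylate synthase, was at 9.07, 10.05 and 10.96 on control and at 9.25, 9.97 and 10.81 on SRF-null arrays. By this brightest probe set, arrays with the same replicate number had nearly the same Tyms signal. Arrays of 1 genotype differed by up to 1.89, the widest span of all members. Dimmer Tyms probe sets did not all share this. One of them was at 8.20, 7.76 and 7.30 on control and at 7.32, 7.71 and 8.56 on SRF-null arrays. For the brightest Tyms probe set the difference was -0.02, and its SE was 0.13 with replicate numbers blocked, against 0.58 without the block. A further probe set that names Tyms together with another gene was left out by the rule.

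Regulators of the G1 to S transition were lower or equal without passing. E2f1, the transcription factor that gives the family its name, was at 12.67, 12.81 and 12.99 on control and at 12.58, 12.33 and 13.07 on SRF-null arrays. SRF-null arrays again held both ends of the range, and the difference was -0.16 (SE 0.21, 95% interval -0.68 to 0.36, limma adjusted p = 0.988). The cyclin E genes Ccne1 (-0.02, SE 0.29) and Ccne2 (0.03, SE 0.28), whose products drive entry into S phase, were nearly equal in mean.

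Checkpoint and repair genes had small positive differences in 3 of 3 cases, as did chromatin and histone mRNA genes. Clspn, which encodes the checkpoint mediator claspin, was at 13.64, 14.16 and 13.85 on control and at 13.88, 14.02 and 14.13 on SRF-null arrays, and control 2 was the highest of all. Its difference was 0.13 (SE 0.17, limma adjusted p = 0.988), that of the checkpoint kinase gene Chek1 0.05 (SE 0.19) and that of Brca1, a repair gene, 0.02 (SE 0.21). Uhrf1, which reads hemimethylated DNA behind the fork, was at 16.11, 16.13 and 16.20 on control and at 16.30, 16.15 and 16.40 on SRF-null arrays. SRF-null 2 overlapped the controls, and the difference was 0.13 (SE 0.12, limma adjusted p = 0.963). The chromatin remodeller gene Hells differed by 0.13 (SE 0.22) and Slbp, whose product binds histone mRNA, by less than 0.01 (SE 0.11).

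Replication genes varied together between arrays, and this variation cut across genotype. Control 1 was the lowest array for 23 of 37 members (62.2%), where 25.3% of all genes and 24.1% of genes above the median level were lowest on that array. SRF-null 2 was lowest for another 12 members, or 32.4% against 16.3% of all genes. The highest value fell on control 3 or SRF-null 3 for 14 members each, 37.8% against 19.3% and 16.2% of all genes. In the mean over members the arrays ran from 14.39 (control 1) through 14.53 (SRF-null 2), 14.60 (SRF-null 1), 14.76 (control 2) and 14.83 (control 3) to 14.88 (SRF-null 3). Each genotype therefore had a low and a high array, and the group means were 14.66 ± 0.23 and 14.67 ± 0.18 (SD, n = 3 each).

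**Figure D2:**
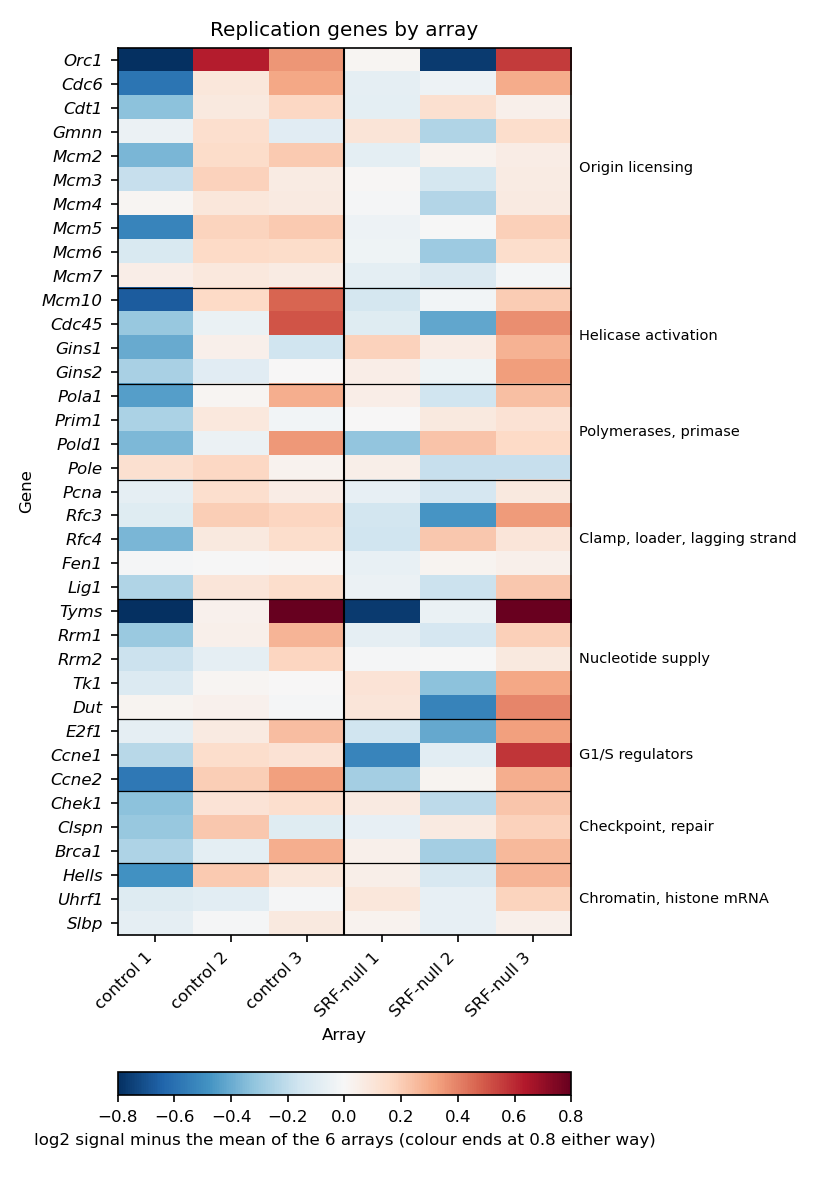
Signal of each of the 37 members on each of the 6 arrays, as log2 signal minus that gene's mean over the arrays (red higher, blue lower), with members grouped by role. Control 1 is blue for most genes, with SRF-null 2 next, and control 3 and SRF-null 3 are mostly red, so columns differ more within a genotype than between genotypes.

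The distance between 2 arrays of 1 genotype was larger than the distance between genotypes for nearly every member. For 36 of 37 members the larger within-genotype range exceeded the difference between genotypes, Mcm7 being the exception, and for 32 of 37 the difference was smaller than its standard error. A range of 3 arrays readily exceeds a difference of means, and the same counts over all genes are not given. These counts therefore do not set the members apart from other genes. Over the 6 arrays the members' brightest probe sets spanned a median of 0.57, from 0.10 (Fen1) to 1.89 (Tyms), with Orc1 at 1.43, Mcm10 at 1.13 and Ccne1 at 1.10. Compared array by array, SRF-null 3 exceeded control 1 in 35 of 37 members, whereas SRF-null 2 exceeded control 3 in 5 of 37.

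Equal replicate numbers were taken as pairs for an alternative fit, though the labels do not say that they mark pairs. Between these pairs the direction differed. SRF-null 1 was above control 1 in 30 of 37 members with a median of 0.20, and SRF-null 2 was above control 2 in 8 of 37 with a median of -0.18. In the third pair SRF-null 3 was higher in 17, lower in 19 and equal in 1. With the replicate number as a block 0 members had an unadjusted p under 0.05, where 3.89% of all genes were higher and 4.23% lower, and the smallest adjusted p among members was 0.687 (Gins1).

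Among the lists of cell type markers, that of granulocyte-monocyte progenitors moved with this array pattern. Granulocyte-monocyte progenitor markers (8 measured of 10, among them Mpo, Elane and Ctsg) had array means in the same order as the members, at 13.82 on control 1, 14.33 on SRF-null 2, 14.88 on SRF-null 1, 14.92 on control 2, 15.21 on control 3 and 15.24 on SRF-null 3. The log2 of their summed signal ranged from 18.15 to 19.10 on control and from 18.49 to 19.09 on SRF-null arrays, and none of the 8 was at the floor of the scale. Of these 8 markers 5 were lowest on control 1. Elane, which encodes neutrophil elastase, spanned most, from 11.96 on control 1 to 15.05 on SRF-null 3, whereas Mpo, which encodes myeloperoxidase, was at 17.13 and 17.57 on these arrays and Csf3r, the G-CSF receptor gene, at 13.32 and 13.19. LSK and stem cell markers (11 measured of 12) ran nearly the other way, from 15.39 on control 1 to 14.65 on SRF-null 3. Of these 11 markers 6 were highest on control 1 and 6 lowest on SRF-null 3. Slamf1, the one with the smallest limma p, was at 11.60 on control 1 and 9.18 on SRF-null 3. Procr, a surface marker of stem cells, was at 15.51 on control 1 and between 14.16 and 14.77 on the other arrays, whereas Meis1, a stem cell transcription factor gene, was at 13.67 on control 1 and 14.30 on SRF-null 2. After median centring the granulocyte-monocyte markers were again lowest on control 1 (13.56) and the LSK markers lowest on SRF-null 3 (14.75), but the LSK markers were then highest on control 2 (15.28). Markers of other cell types followed other array orders. Macrophage markers had array means of 8.13 to 8.63 on control and 8.24 to 10.03 on SRF-null arrays, and T and NK cell markers of 6.66 to 7.09 and 6.86 to 7.88. B cell markers were at 8.05 to 9.55 and 7.64 to 10.51, erythroid markers at 10.39 to 10.48 and 9.76 to 11.08, and stromal and endothelial markers at 8.07 to 8.38 and 7.81 to 8.71. Some markers stayed below an intensity of 16, the offset, on every array: 2 of 9 T and NK cell, 2 of 9 erythroid and 1 of 9 B cell markers. The means of these lists include them. The part of these cells in the level of replication genes was not tested.

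Signal distribution moved with the pattern as well. Control 1 had the highest raw median intensity, 292, and SRF-null 1, SRF-null 2, control 2, SRF-null 3 and control 3 followed at 270.2, 231, 221, 218 and 200.4. The order of the members' means was the same with no normalisation and with upper quartile scaling. After median centring control 1 remained lowest (14.12), and SRF-null 1 (14.44) and control 3 (15.05) moved to second-lowest and highest. Between the 3′ and 5′ control probe sets of Gapdh, which report on RNA integrity, the log2 signal differed by 0.67 on SRF-null 3 and 0.95 to 1.20 on the other arrays. For those of actin it differed by 0.93 on SRF-null 3, 1.00 on SRF-null 1 and up to 1.51 on SRF-null 2. Neither followed the order of the members' means. What these features contributed was not tested.

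**Figure D3:**
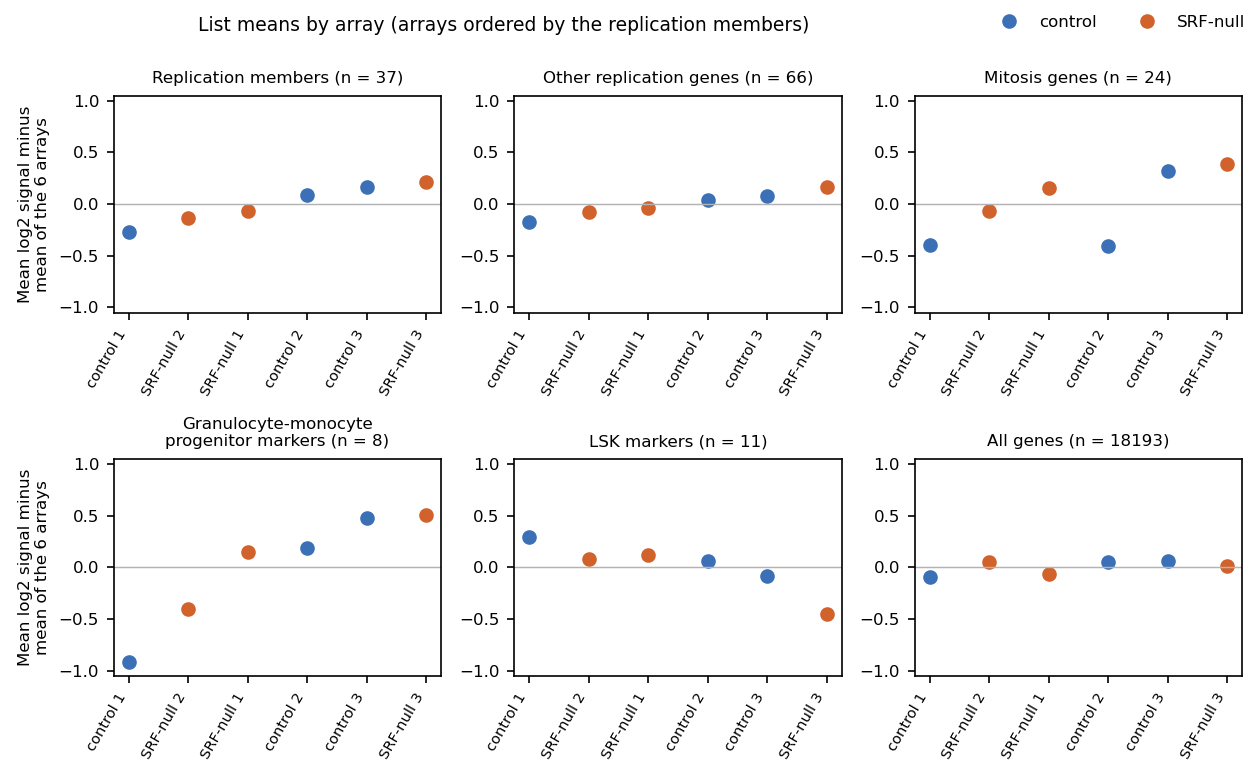
Mean log2 signal of 6 gene lists on each array, as the distance from the mean over the 6 arrays, with control arrays in blue and SRF-null arrays in orange, ordered by the members' mean from control 1 to SRF-null 3. Replication members, the other replication genes and granulocyte-monocyte progenitor markers run in that order, LSK markers run nearly opposite, and mitosis genes are lowest on control 1 and control 2.

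The remaining genes of the pathway showed the same picture. Of 70 further replication genes listed by role, 66 were measured, 36 were higher and 30 lower in SRF-null cells, and their median difference was 0.02. By limma 0 of 66 passed the threshold. At an unadjusted p under 0.05, where 2.90% of all genes were higher and 2.83% lower, 0 were higher and 2 were lower. They were Chaf1b, a subunit of the histone chaperone CAF-1 (-0.28, SE 0.11, adjusted p = 0.851), and Rnaseh2b, of the nuclease that removes ribonucleotides from DNA (-0.27, SE 0.11, adjusted p = 0.858). Chaf1b was at 14.26, 14.32 and 14.29 on control and at 13.96, 14.01 and 14.06 on SRF-null arrays, so its groups stood clear of each other. Among those lower with the next smallest p were Dctd (-0.51, SE 0.33), an enzyme of thymidylate supply, and the nuclease gene Dna2 (-0.23, SE 0.20).

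Those higher with the smallest p were Mcm9, Timeless, E2f2 and Nasp. Mcm9, an MCM family member that acts in repair, differed by 0.30 (SE 0.13) and Timeless, of the fork protection complex, by 0.34 (SE 0.15). Both had no overlap of the groups. Of the 66 genes 3 had groups without overlap in the higher direction and 3 in the lower. Over all genes the shares were 5.16% and 5.45%, so such groups do not set these genes apart. E2f2, an activating E2F, was at 10.42, 10.94 and 11.49 on control and at 11.45, 11.48 and 11.80 on SRF-null arrays, so it overlapped through control 3. Its difference was 0.63 (SE 0.28), and that of the histone chaperone gene Nasp was 0.49 (SE 0.25). With the replicate number as a block E2f2, Nasp and Pold4 (0.36, SE 0.20) had an unadjusted p under 0.05, replacing the 2 lower genes. At that p 3.89% of all genes were higher and 4.23% lower with the block. Pold4 was named after its values were seen, and 0 of 66 passed the threshold. Control 1 was lowest for 26 of these 66 genes and SRF-null 2 for 19.

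Mitosis genes followed another array order. All 24 measured of 25 were higher in SRF-null cells on average, with a median of 0.30, and 0 had an unadjusted p under 0.05. With the replicate number as a block 3 of 24 had one, Hmmr, Cenpa and Ube2c, where 3.89% of all genes were higher at that p, and 0 passed the threshold. Without control 2 and SRF-null 1 together 22 of 24 were higher, with a median of 0.17, and Mki67 (-0.09) and Aurka (-0.08) were lower. Hmmr (0.70, SE 0.31), Ccnb2 (0.51, SE 0.24) and Cenpa (0.46, SE 0.22), which act on the spindle, at entry into mitosis and at the centromere, had the smallest p without the block. Control 2, an array on which replication genes were above their mean, was low for the mitosis list at 13.66, as was control 1 at 13.67, and the other arrays were at 13.99 to 14.45. Whether mitosis and replication genes differ in their response was not tested. Inhibitors of cyclin-dependent kinases numbered 7 with a median of 0.10, and 3 of the 7 were higher without control 2 and SRF-null 1. Of these inhibitors Cdkn2c differed by 0.36 (SE 0.21) and Cdkn2d by 0.10 (SE 0.15). In the list 2 of 7 stayed below an intensity of 16, the offset, on every array, and the median and count include them. Cdkn2a is 1 of these, and its difference is not given.

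Probe sets of 1 member often differed from each other in size or in sign, as given below. Over all 88 probe sets 49 were higher and 39 lower, with a median of 0.01, and 0 passed the limma threshold, as did 0% of 34945 probe sets. At an unadjusted p under 0.05 there were 2 higher, beside 2.59% of all probe sets, and 0 lower, beside 2.31%. Groups did not overlap for 4 in the higher direction (4.98% of all) and for 1 in the lower (4.84% of all). With the replicate number as a block 4 were higher (3.71% of all) and 0 lower (3.78% of all) at that unadjusted p, and again 0 passed.

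These 4 were dimmer probe sets of Gins1, Mcm10, Clspn and Dut. The dimmer Gins1 probe set was at 10.56, 11.98 and 11.24 on control and at 12.08, 12.56 and 12.18 on SRF-null arrays, with no overlap and the same direction as the brighter one. Its difference was 1.01 (SE 0.37, 95% interval 0.12 to 1.91), with a limma adjusted p of 0.969. The name of this probe set ends in _x_at, which marks probes that can also bind other sequences. The brightest probe sets of 4 members, Fen1, Mcm5, Pold1 and Rrm2, have such names as well. For Mcm10 a dim probe set differed by 0.66 (SE 0.27), where the brightest differed by 0.03. For Clspn it was 0.49 (SE 0.22) against 0.13, and for Dut 0.40 (SE 0.27) against -0.03.

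Of the 30 members with several probe sets 12 had differences of both signs. In Cdt1, Ccne1 and Chek1 every one of these was within 0.1 of 0. In Mcm2, Mcm4, Mcm5, Pold1, Uhrf1 and Brca1 they reached between 0.12 and 0.38 in size on the negative side and at most 0.20 on the positive. Tyms ran from -0.73 to 0.11 over 4 probe sets, Rrm1 from -0.01 to 0.53 over 3 and Dut from -0.03 to 0.40 over 2. The extremes of Tyms and Rrm1 came from probe sets with a mean signal far below that of each gene's brightest one.

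**Figure D4:**
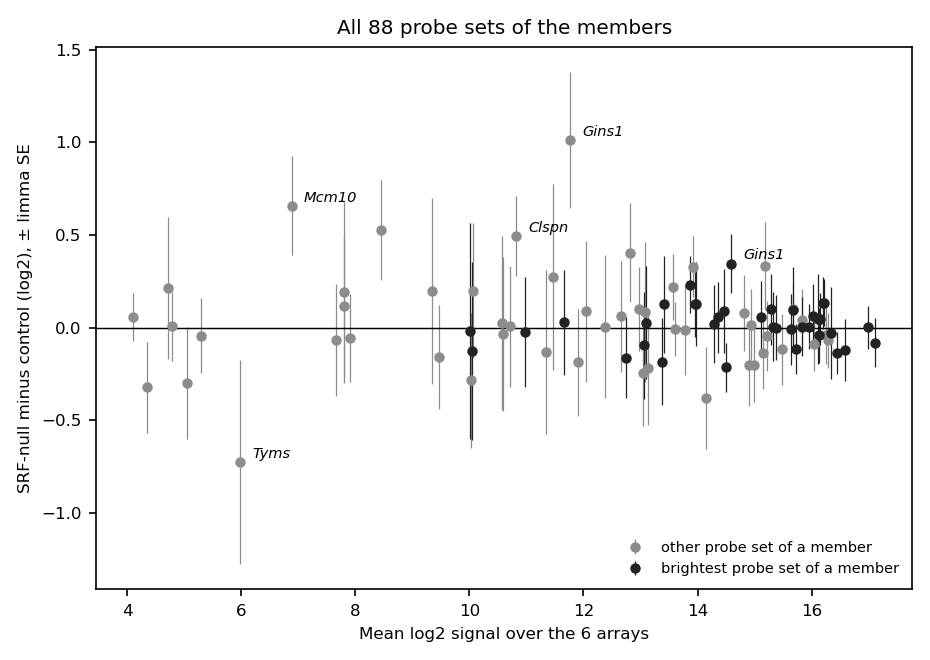
Difference between SRF-null and control for all 88 probe sets of the members against their mean log2 signal over the 6 arrays, with the limma standard error as the bar and the brightest probe set of each gene in black. Differences past 0.5 in size occur in dimmer, grey probe sets, of which Gins1 at 1.01 and Tyms at -0.73 are the extremes, and black points stay between -0.21 and 0.35.

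Members with an E2F-type match in the promoter had differences on both sides of 0, as did those without. The 14 with a match had a median of 0.05 and 8 were higher, and the 17 with a window and no match had a median below 0.01 and 10 were higher. Among the genes whose promoters are printed above, Mcm6, Mcm7 and Rfc3 were lower on average and Clspn and Uhrf1 higher, none past the threshold.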

How the data were processed

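RNA from sorted LSK cells (30 ng per sample) was amplified, biotin-labelled and hybridised to Affymetrix arrays, per the labels' protocols. Values in the deposited table are linear intensities, 1 for each probe set on each array, a unit read from the values. How the authors summarised, corrected and scaled them is not stated in the labels. The number of arrays limits precision, and no detection calls were used.

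Control probe sets (64) were dropped, and log2(intensity + 16) was quantile normalised because array medians differed by 0.51, above a limit of 0.1. Probe sets were named from the platform annotation: 34945 name 1 gene, 932 several and 9160 none. A gene was represented by its probe set with the highest mean. SRF-null was compared with control in limma 3.58.1 (R 4.3.3; lmFit, eBayes, two-sided), with Benjamini-Hochberg adjustment over all genes or all probe sets and a threshold of 0.05; the fit was tested on simulated data. Motifs were counted in Python 3.11.15 and figures drawn with matplotlib 3.10.9.

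Members and lists were chosen with earlier results of these data known. Every member is named. Values on all arrays are given for the 12 with the smallest p, and also for Tyms, which is outside that rule. Of the other replication genes up to 4 in each direction are named by smallest p. Other lists give at most 3 genes by smallest p, with further ones chosen after their values were seen (Elane, Procr, Ctsg, Mpo, Meis1, Ube2c, Mki67, Aurka). Replicate numbers 1 to 3 recur in both genotypes, and deviations from the group means of equal numbers correlated at 0.20, 0.13 and 0.37 across genes. All were above 0.1, so equal numbers were treated as pairing the arrays in an alternative fit. Correlations between unequal numbers are not given, so this check cannot show that equal numbers are true pairs.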

Additional observations from a re-analysis of the deposited data

How the results depend on the processing

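The count of members past the threshold was 0 under all 19 alternatives, and so was that of the other replication genes. The settings were other offsets, normalisations, variance models and probe set rules, the replicate block, and fits without single arrays or without control 2 and SRF-null 1 together. Over all genes, and likewise over all probe sets, 1 passed after median centring, with a trended and robust variance and without control replicate 2, and 0 otherwise. The number of higher members, 22, was 11 with array weights and ranged from 6 (without control replicate 1) to 28 when single arrays were left out. For probe sets the number higher, 49, was 30 with array weights and ranged from 23 (without control replicate 1 or SRF-null replicate 3) to 63. Median differences stayed within the spread of the array means. The sign turned for Uhrf1 (-0.13) and Mcm4 (0.10) when the probe set with the largest spread stood for the gene, and for Rfc3 without SRF-null replicate 2 (single arrays left out gave -0.40 to 0.0046). The replicate block changed no call and left 22 of 37 members higher. Leaving out probe sets whose names end in _x_at or _s_at, an alternative chosen after seeing the data, gave 19 of 37. The cause of these shifts was not tested. How far each signal lay above background is unknown, which limits what the dimmer probe sets show.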
